A study of Homo sapiens with 6 samples.

Results

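A set of 10 genes of heme breakdown, ferritin and iron handling was followed in RKO cells, an established human line of colorectal carcinoma. The genes were chosen by name and found through the Ensembl identifiers of GENCODE. All 10 had a row among the 58735 genes counted, and 9 had enough counts to be tested. The cells received EZA or, as controls, DMSO, a common solvent, and polyadenylated RNA was sequenced in 3 replicates of each group. EZA is named in the labels by these letters only, and dose and duration were not given in the sources used here. RKO is a single established line, so the values describe that line only. Each library pools many cells, so a change in the level per cell and a change in the share of cells that carry a transcript cannot be told apart.

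Heme oxygenase opens the heme ring and frees its iron, with carbon monoxide and biliverdin as the other products, and biliverdin reductase turns biliverdin into bilirubin. Iron that a cell does not use is stored in ferritin, a shell of heavy chains, which oxidise the iron, and light chains, which help it to settle in the core. Iron enters with transferrin through the transferrin receptor, is carried out of endosomes by DMT1, and leaves the cell through ferroportin. The iron regulatory proteins IRP1 and IRP2 bind a hairpin in the transcripts of these genes, the iron-responsive element. When iron is scarce they block translation of ferritin and ferroportin and protect the transferrin receptor transcript from decay. Transcription of heme oxygenase and ferritin is also raised by NRF2 and held down by BACH1.

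Libraries held 14070611 to 18840954 counts. EZA replicate 3 differed from the rest. Its share of mitochondrial counts was 0.203%, against 3.68% to 5.02% in the other 5. Across genes, the correlation of its log-CPM was 0.964 with EZA replicate 1 and 0.962 with EZA replicate 2, which correlated with each other at 0.991. Values without this library are given where it changed a call or moved a value or count by much. Of 13 markers of colorectal and simple epithelium, 4 reached a mean of 1 CPM (counts scaled to library size), namely KRT18, KRT8, EPCAM and CDX2. CDH1, CDX1, CEACAM5, LGR5 and MUC2 had no counts. Markers of cells in which heme and iron genes are abundant were nearly absent. The 10 macrophage markers summed to 0.831 to 1.85 CPM in DMSO and 0.283 to 2.54 CPM in EZA, with PTPRC, CD14 and MARCO at 0. The 12 erythroid markers summed to 4.19 to 6.32 CPM in DMSO and 5.90 to 8.27 CPM in EZA, most of it EPOR, with HBB and ALAS2 at 0. The 6 hepatocyte markers summed to at most 0.639 CPM and the 6 fibroblast markers to at most 0.353 CPM in any library.

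Transcripts of heme oxygenase 1, biliverdin reductase B, ferrochelatase and the ferritin heavy chain were higher in EZA-treated cells, and that of the iron sensor IRP2 was lower. HMOX1 rose 6.79-fold, FTH1 2.57-fold, BLVRB 1.84-fold and FECH 1.57-fold, while IREB2 fell to 0.723 of its DMSO level. Of the 9 genes tested, 4 rose and 1 fell in the edgeR quasi-likelihood test (adjusted p below 0.05 over all 13503 genes tested). Over all genes 9.89% rose and 7.82% fell. The study's own threshold, a change of at least 2-fold with an unadjusted p below 0.05, was passed by HMOX1 and FTH1, both higher, and over all genes it was passed by 5.73%, 3.77% higher and 1.96% lower. The median log2 fold change of the 9 genes was 0.59, against -0.01 over all genes tested. The groups were free of overlap in 7 of the 9 genes and in 42.7% of all genes, 21.0% with EZA higher and 21.7% with EZA lower. Without EZA replicate 3, FTL and TFRC passed as well, which made 5 genes higher and 2 lower. In that comparison 19.1% of all genes were higher and 19.2% lower.

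**Figure D1:**
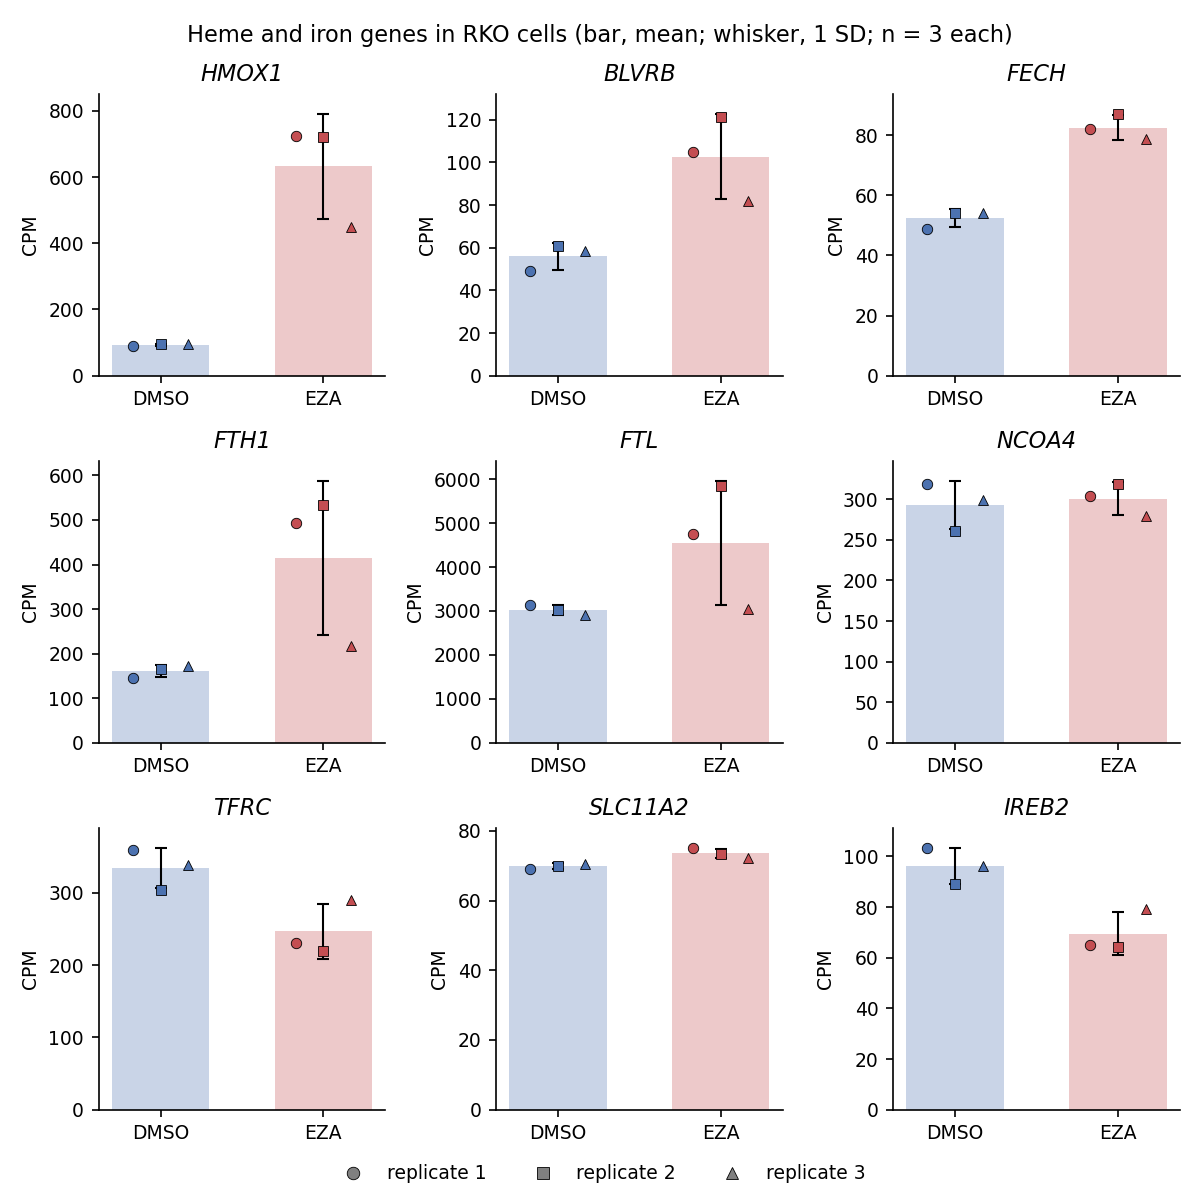
Normalised counts (CPM, linear axes from 0) of the 9 genes tested, where points are replicates, bars are group means and whiskers span 1 SD (n = 3 each). HMOX1 lies at 450 to 724 CPM in EZA and below 97 CPM in DMSO, while EZA replicate 3 of FTL, at 3054 CPM, lies within the DMSO range.

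HMOX1 encodes heme oxygenase 1, the inducible enzyme that breaks heme down (ENSG00000100292, chromosome 22, 35380361 to 35394214, plus strand, GRCh38). Its level was 88.7, 96.2 and 94.3 CPM in DMSO replicates 1 to 3 and 724, 721 and 450 CPM in EZA replicates 1 to 3. Every EZA library lay far above every DMSO library, and EZA replicate 3 was the lowest of the EZA group. The means were 93.0 ± 3.92 and 632 ± 157 CPM (SD, n = 3 each), and the log2 fold change was 2.76 ± 0.20 (SE; edgeR adjusted p = 2.20e-04). Only 20 of the 13503 genes tested had a higher log2 fold change, since HMOX1 ranked 21. Without EZA replicate 3 the log2 fold change was 2.96.

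HMOX2, the constitutive heme oxygenase, was at 71.3, 73.7 and 73.0 CPM in DMSO and 80.3, 86.1 and 87.7 CPM in EZA. Its log2 fold change of 0.22 ± 0.11 (SE) did not pass the test (edgeR adjusted p = 0.200), and it was -0.12 once the dependence of fold changes on GC content and transcript length (the GC and length trend) was removed. HMOX2 shares exonic sequence with NMRAL1 on the other strand, and the labels give the libraries as non-stranded.

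BLVRB encodes biliverdin reductase B, a reductase of biliverdin IX-beta and of flavins (ENSG00000090013, chromosome 19, 40447765 to 40465764, minus strand). It was at 48.9, 60.6 and 58.2 CPM in DMSO and 105, 121 and 82.1 CPM in EZA, with no overlap between the groups. The log2 fold change was 0.88 ± 0.17 (SE; edgeR adjusted p = 0.0132) with all libraries and 1.02 without EZA replicate 3. Its call was lost without DMSO replicate 1 or DMSO replicate 3 (adjusted p = 0.0857 and 0.0675), with log2 fold changes of 0.79 and 0.91. The 1537 genes within 2 percentage points of its GC content had a median log2 fold change of 0.24. After removal of the GC and length trend BLVRB was at 0.59 (adjusted p = 0.0327). With the replicate number also used as a block, it was at 0.58 and the call was lost (adjusted p = 0.0676). BLVRA, the reductase of biliverdin IX-alpha, which is the product of heme oxygenase, had 50.9 ± 1.99 CPM in DMSO and 53.6 ± 6.25 CPM in EZA (SD, n = 3 each; adjusted p = 0.723). The EZA libraries of BLVRA lay on both sides of the DMSO range.

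FECH encodes ferrochelatase, which inserts iron into protoporphyrin in the last step of heme synthesis (ENSG00000066926, chromosome 18, 57544377 to 57586732, minus strand). It was at 48.9, 54.1 and 54.2 CPM in DMSO and 81.9, 86.9 and 78.7 CPM in EZA. The 3 EZA libraries lay close together here, EZA replicate 3 included. The log2 fold change was 0.66 ± 0.12 (SE; edgeR adjusted p = 0.0112). Genes whose transcripts have a GC content within 2 percentage points of that of FECH had a median log2 fold change of -0.16 (2260 genes), and after removal of the GC and length trend FECH was at 0.86. Its call was lost without DMSO replicate 1 or DMSO replicate 3 (adjusted p = 0.0798 and 0.0728).

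Other enzymes of heme synthesis were examined as a list. Of its 11 tested genes 4 rose and 0 fell, with a median log2 fold change of 0.39, against 9.89% of all genes higher. At an unadjusted p below 0.05 there were 6, against 4676 of all 13503 genes tested. The count of called genes was 6 without EZA replicate 3, 3 without EZA replicate 1, 1 without EZA replicate 2 and 0 without any 1 of the DMSO libraries. Without EZA replicate 3, all 6 were higher, as were 19.1% of all genes. ALAD, which joins aminolevulinate into porphobilinogen, was at 29.0, 32.6 and 31.9 CPM in DMSO and 45.2, 42.2 and 58.3 CPM in EZA. UROD, uroporphyrinogen decarboxylase, rose from 140.3 ± 8.51 to 203 ± 19.8 CPM (SD, n = 3 each), and PPOX, which makes protoporphyrin, rose from 14.7 ± 2.77 to 23.4 ± 1.95 CPM. SLC25A38, a mitochondrial glycine carrier that serves the first step, had a log2 fold change of 0.43 ± 0.12 in edgeR (SE; adjusted p = 0.0447). ALAS1, the rate-limiting synthase outside red cells, was at 106, 105 and 98.2 CPM in DMSO and 124, 128 and 91.3 CPM in EZA. Its log2 fold change was 0.16 with all libraries (edgeR adjusted p = 0.495) and 0.30 without EZA replicate 3 (adjusted p = 0.0244), where it passed. After removal of the GC and length trend, 0 of the 11 genes were called, against 1594 in the whole table. With EZA replicate 3 also left out there were 5 higher and 1 lower, where 2813 of all genes were higher and 2527 lower. UROD overlaps HECTD3 and PPOX overlaps B4GALT3, both on the other strand.

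The hairpins by which iron regulatory proteins recognise ferritin and transferrin receptor transcripts are printed here because the genes that carry them are those compared next. Each site is 27 bases, 5′ to 3′ on the transcript strand, with the 6-base loop in capitals. Transcripts of 8 of the 10 genes, all but HMOX1 and FTH1, were searched for the loop CAGTGN closed by a stem of 5 pairs, with a C bulged out before that stem and at least 3 pairs in the lower stem. Sites were counted only in untranslated regions of GENCODE transcripts on GRCh38. FTL had 1, before the coding sequence, SLC40A1 had 1, also before it, and TFRC had 4, all after it.
FTL, chr19:48965336-48965362, plus strand: tcttgcttcaaCAGTGTttggacggaa
SLC40A1, chr2:189580662-189580688, minus strand: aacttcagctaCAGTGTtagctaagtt
TFRC, chr3:196050980-196051006, minus strand: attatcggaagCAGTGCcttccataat
TFRC, chr3:196050576-196050602, minus strand: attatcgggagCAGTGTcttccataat
TFRC, chr3:196050511-196050537, minus strand: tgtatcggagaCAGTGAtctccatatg
TFRC, chr3:196050464-196050490, minus strand: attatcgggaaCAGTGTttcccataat
The search found a site in none of the transcripts of the other 5 genes, which says only that these letters and pairs are not in their untranslated regions. It allowed no unpaired position in the stem of 5 pairs and no other loop. Iron-responsive elements of another form would be missed, in these 5 genes and in TFRC alike. Protein binding to these sites is not measured by transcript counts.

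FTH1 encodes the ferritin heavy chain (ENSG00000167996, chromosome 11, 61959718 to 61967634, minus strand). It was at 146, 166 and 172 CPM in DMSO and 493, 533 and 217 CPM in EZA. EZA replicates 1 and 2 were about alike, and EZA replicate 3 lay only slightly above the DMSO group, so the spread in EZA was wide. The means were 161 ± 13.6 and 414 ± 172 CPM (SD, n = 3 each), which gave a log2 fold change of 1.36 ± 0.29 with edgeR (SE; adjusted p = 0.0189). Without EZA replicate 3 it was 1.67 ± 0.11. The call was lost when any 1 DMSO library was left out, with log2 fold changes of 1.30 to 1.41 and adjusted p of 0.110, 0.0716 and 0.0790 without DMSO replicate 1, 2 or 3.

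Reads of FTH1 can also match its processed copies. The table held 25 rows of such FTH1 pseudogenes, and 12 of these had counts, 346 in all, which is 1.23% of the 28103 counts of FTH1. FTH1P8, the copy with the most counts, had 5, 5 and 6 in DMSO and 33, 30 and 19 in EZA. The counts of all FTH1 copies together were 34, 35 and 43 in DMSO and 83, 99 and 52 in EZA, so these rows were higher in each EZA library than in any DMSO library. Added to FTH1 they left its log2 fold change at 1.36. How the authors' counting treated reads with several matches is not given in the sources used here, so the level of FTH1 is uncertain.

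FTL encodes the ferritin light chain (ENSG00000087086, chromosome 19, 48965309 to 48966879, plus strand). It was at 3137, 3029 and 2914 CPM in DMSO and 4747, 5840 and 3054 CPM in EZA. EZA replicates 1 and 2 lay above all DMSO libraries, and EZA replicate 3 lay among them. A log2 fold change of 0.59 ± 0.23 (SE) did not pass the test (edgeR adjusted p = 0.104). It was 0.81 ± 0.10 without EZA replicate 3 (adjusted p = 4.07e-08) and 0.37 without EZA replicate 2 (adjusted p = 0.259). DESeq2 called it with all libraries (adjusted p = 0.0477). The 1565 genes within 2 percentage points of its GC content had a median log2 fold change of 0.19. After removal of the GC and length trend FTL was at 0.38 (edgeR adjusted p = 0.254), and at 0.57 when EZA replicate 3 was also left out (adjusted p = 1.01e-05). FTL and FTH1 together took 0.333%, 0.323% and 0.315% of all counts in DMSO and 0.514%, 0.613% and 0.329% in EZA.

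NCOA4 encodes the receptor that delivers ferritin to lysosomes, where its iron is released (ENSG00000266412, chromosome 10, 46005088 to 46030623, minus strand). It was at 319, 261 and 299 CPM in DMSO and 304, 319 and 279 CPM in EZA. The groups overlapped throughout. The log2 fold change was 0.04 ± 0.13 (SE; edgeR adjusted p = 0.867), and it was -0.01 with scaling by library size alone. Without EZA replicate 3 and after removal of the GC and length trend it was 0.22 (adjusted p = 0.00988).

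TFRC encodes the transferrin receptor (ENSG00000072274, chromosome 3, 196012511 to 196082153, minus strand), whose transcript carries the 4 hairpins printed above after its coding sequence. It was at 359, 304 and 338 CPM in DMSO and 230, 219 and 290 CPM in EZA. All EZA libraries lay below all DMSO libraries, with EZA replicate 3 the nearest to them. The log2 fold change of -0.44 ± 0.15 (SE) did not pass the test over all genes (edgeR adjusted p = 0.0712; unadjusted p = 0.0160). It was -0.57 ± 0.11 without EZA replicate 3 (adjusted p = 5.95e-05). The TFRC transcript has a GC content of 41.0%, and the 2334 genes within 2 percentage points of it had log2 fold changes with a median of -0.22. After removal of the GC and length trend TFRC was at -0.17 (adjusted p = 0.336), and at -0.28 when EZA replicate 3 was also left out (adjusted p = 0.00141).

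SLC11A2 encodes DMT1, the divalent metal transporter of endosomes (ENSG00000110911, chromosome 12, 50979401 to 51028566, minus strand). It was at 69.0, 70.0 and 70.6 CPM in DMSO and 75.0, 73.5 and 72.2 CPM in EZA. The EZA libraries lay just above the DMSO libraries, and the difference was small. Its log2 fold change of 0.07 ± 0.11 (SE) did not pass the test (edgeR adjusted p = 0.671). Without EZA replicate 3 and after removal of the GC and length trend it was 0.23 (adjusted p = 0.0147).

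SLC40A1, which encodes ferroportin, the iron exporter, had 0 counts in all 6 libraries (ENSG00000138449, chromosome 2, 189560590 to 189583758, minus strand). A count of 0 allows up to 3 counts, or 0.166 to 0.212 CPM depending on the library, counting error only. A change in SLC40A1 was therefore not detectable at this depth. The partners of ferroportin were as low: HEPH and CP, the copper oxidases that act beside it, had 2 and 6 counts over all libraries, and HAMP, the hormone hepcidin that removes it from the membrane, had 0.

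IREB2 encodes IRP2, an iron regulatory protein that is degraded when iron is plentiful (ENSG00000136381, chromosome 15, 78437431 to 78501453, plus strand). It was at 103, 89.1 and 96.2 CPM in DMSO and 65.2, 64.1 and 79.3 CPM in EZA. The groups did not overlap, and EZA replicate 3 was again the nearest to DMSO. The log2 fold change was -0.47 ± 0.13 (SE; edgeR adjusted p = 0.0442), and -0.57 ± 0.11 without EZA replicate 3 (adjusted p = 9.56e-05). Its transcript has the lowest GC content of the 9 tested genes, 38.2%, and the 1950 genes within 2 percentage points had log2 fold changes with a median of -0.29. After removal of the GC and length trend without EZA replicate 3, IREB2 was at -0.21 and still called (adjusted p = 0.0174). With all libraries and the trend removed it was at -0.14, and the call was lost (adjusted p = 0.359). Its call was also lost with the replicate number as a block (adjusted p = 0.0740) and without any 1 library other than EZA replicate 3 (adjusted p = 0.0915 to 0.181). What part the GC trend has in the values of TFRC and IREB2 was not tested further.

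ACO1, which encodes IRP1, the other iron regulatory protein, averaged 128 ± 4.19 CPM in DMSO and 138 ± 20.7 CPM in EZA (SD, n = 3 each; edgeR adjusted p = 0.611), and its log2 fold change turned from 0.11 to -0.02 without EZA replicate 3. FBXL5, which marks IRP2 for degradation when iron is present, was at 48.7, 40.3 and 44.4 CPM in DMSO and 36.2, 33.8 and 30.3 CPM in EZA. Its log2 fold change of -0.41 ± 0.14 (SE) did not pass with all libraries (adjusted p = 0.0703), and it was -0.34 without EZA replicate 3 (adjusted p = 0.0248). Over 19 alternatives the value for FBXL5 was -0.47 to -0.10, and it passed under 2 of them.

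**Figure D2:**
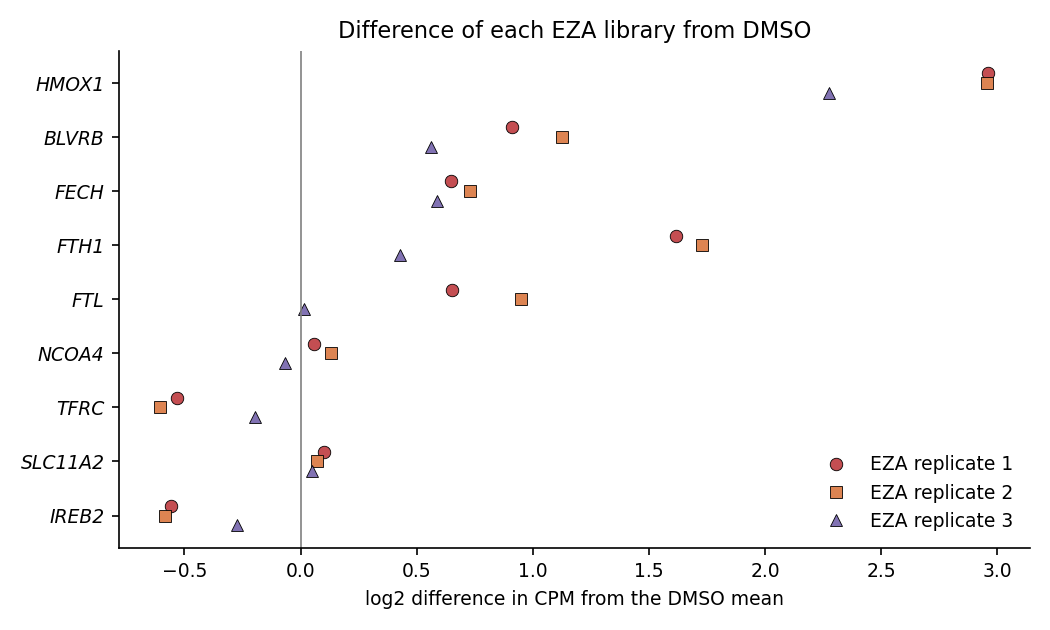
Log2 difference in CPM of each EZA library from the mean of log2 CPM in the 3 DMSO libraries, for the 9 genes tested. EZA replicate 3 is the library nearest to 0 in 8 of them, at 2.28 against 2.96 and 2.95 for HMOX1 and at 0.43 against 1.62 and 1.73 for FTH1.

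The 3 EZA libraries differed in size of change more than in direction. In EZA replicates 1, 2 and 3, HMOX1 lay 2.96, 2.95 and 2.28 above the DMSO mean on the log2 scale. FTH1 lay 1.62, 1.73 and 0.43 above it, and FTL 0.65, 0.95 and 0.01. TFRC lay at -0.53, -0.60 and -0.20, and IREB2 at -0.56, -0.58 and -0.28. EZA replicate 3 was the nearest to the DMSO mean in 8 of the 9 genes, with NCOA4 as the exception. This library also has the low mitochondrial share given above, and the part of that difference in these values was not tested.

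Ratios of 2 genes within a library do not depend on the scaling between libraries. Those with FTH1 share the uncertainty of its level, since the handling of reads with several matches is not known. The counts of FTL were 21.5, 18.3 and 16.9 times those of FTH1 in DMSO and 9.62, 10.96 and 14.1 times in EZA. The ratio was lower in every EZA library, so the heavy-chain transcript made up a larger part of the ferritin counts there. The log2 ratio differed by -0.72 between EZA and DMSO (exact permutation test, two-sided, p = 0.1). That p is the smallest that 3 against 3 samples allow, and it was reached by all 4 ratios examined, each with an adjusted p of 0.1.

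The counts of TFRC were 2.46, 1.83 and 1.97 times those of FTH1 in DMSO and 0.467, 0.411 and 1.34 times in EZA. In EZA replicates 1 and 2, but not in EZA replicate 3, FTH1 had more counts than TFRC. The log2 ratio differed by -1.70, and by -2.24 without EZA replicate 3. HMOX1 had 1.24, 1.30 and 1.29 times the counts of HMOX2 in DMSO and 9.02, 8.38 and 5.13 times in EZA, a log2 difference of 2.51. BLVRB had 0.920, 1.21 and 1.18 times the counts of BLVRA in DMSO and 2.22, 2.25 and 1.37 times in EZA, a log2 difference of 0.80. In none of the 4 ratios did the groups overlap.

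**Figure D3:**
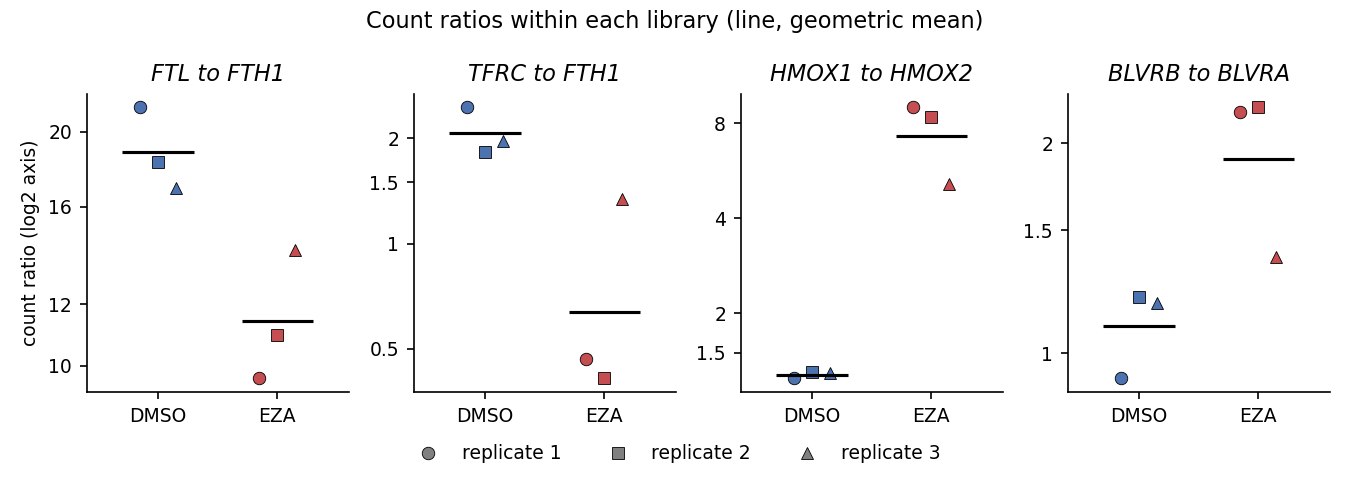
Ratio of the counts of 2 genes within each library, on log2 axes, with a point per replicate and a line for the geometric mean of the group. FTL to FTH1 lies at 16.9 to 21.5 in DMSO and 9.62 to 14.1 in EZA, and HMOX1 to HMOX2 at 1.24 to 1.30 and 5.13 to 9.02.

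Levels of different genes were compared per length, as the deposited FPKM (fragments per length of transcript and per depth of library). In DMSO, FTL was the most abundant of the 10, with 3381 ± 135 FPKM (SD, n = 3), and only 5 of all rows were higher, since it ranked 6. FTH1 followed with 77.9 ± 6.49 FPKM and NCOA4 with 70.4 ± 6.79 FPKM, and their libraries overlapped. The place of FTH1 in either group is uncertain, since the handling of reads that also match its copies is not known. TFRC with 41.5 ± 3.31 FPKM and HMOX1 with 37.9 ± 1.67 FPKM overlapped as well. BLVRB, FECH, IREB2 and SLC11A2 came next with means of 32.5, 11.5, 8.72 and 6.76 FPKM and did not overlap with their neighbours. In EZA, HMOX1 moved to the second place with 260 ± 66.5 FPKM and overlapped with FTH1 at 202 ± 85.6 FPKM, and BLVRB stood above TFRC at 60.3 against 30.9 FPKM.

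**Figure D4:**
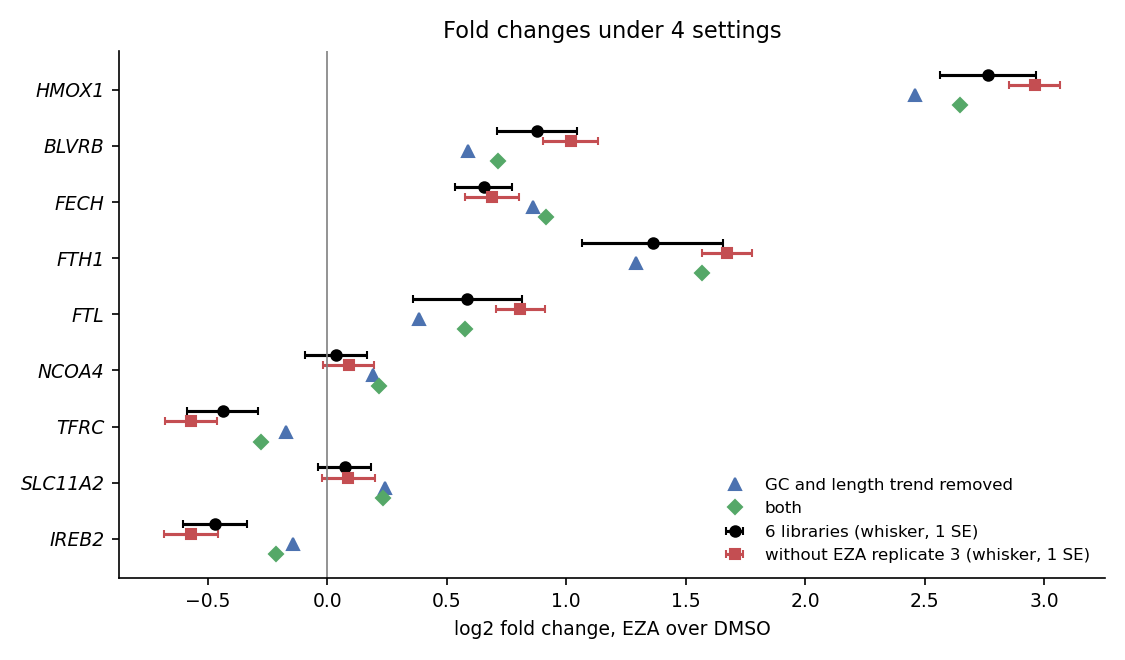
Log2 fold change of the 9 genes under 4 settings, with whiskers of 1 SE for the fits with all libraries and without EZA replicate 3. HMOX1 stays between 2.46 and 2.96, while TFRC moves from -0.44 to -0.17 and IREB2 from -0.47 to -0.14 when the GC and length trend is removed.

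The rest of the pathway was described with 8 lists of other genes, 101 in all, of which 81 were tested, 16 rose and 3 fell. Their median log2 fold change was 0.09, and the shares called can be read against 9.89% of all genes higher and 7.82% lower. Leaving out EZA replicate 3 gave 25 higher and 10 lower, where 19.1% of all genes were higher and 19.2% lower. These shares also apply to the counts of each list below without that library. Counts of a list with another library left out can be read against the whole-table counts given with heme synthesis. Of the 19 called genes 16 lost their call under at least 1 of the alternatives run, and the other 3 were ID1, MAFF and ATF4. The list of heme synthesis was given above. In the list of heme breakdown and transport 1 of 11 genes rose, with 3 at an unadjusted p below 0.05. Such a p was found for 4676 of all 13503 genes tested. The list had 3 genes higher and 2 lower without EZA replicate 3, and without DMSO replicate 1 or 3 it had 0 called. The gene called with all libraries was HEBP1, a heme-binding protein, which went from 33.8 ± 1.47 to 52.6 ± 2.89 CPM (SD, n = 3 each; edgeR adjusted p = 0.0133).

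In the list of iron uptake and reduction 2 of 8 tested genes were higher and 1 lower, with a median log2 fold change of -0.34. Of all genes tested 9.89% were higher and 7.82% lower. There were 2 higher and 2 lower without EZA replicate 3, without EZA replicate 2 there was 1 higher, and 0 were called without EZA replicate 1 or any 1 of the DMSO libraries. The whole table had 1469 called without EZA replicate 2, 1574 without EZA replicate 1 and 220 to 787 without a DMSO library. SLC39A14, a zinc and iron importer, rose from 234 ± 9.50 to 324 ± 32.1 CPM (SD, n = 3 each). SLC39A8, its close relative, fell from 54.5 ± 3.48 to 37.2 ± 3.15 CPM, and edgeR gave -0.55 ± 0.13 on the log2 scale (SE; adjusted p = 0.0247). MCOLN1, a cation channel that releases iron from lysosomes, had a log2 fold change of 0.52 ± 0.14 (SE; adjusted p = 0.0356), and it was 0.11 after removal of the GC and length trend (adjusted p = 0.611). It overlaps PNPLA6, which has more counts. The duodenal reductase CYBRD1 and transferrin itself, TF, had 1 and 2 counts in all.

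In the list of iron storage, chaperones and sensing 0 of 9 genes rose and 1 fell, with 4 at an unadjusted p below 0.05. Over all genes tested, 4676 of 13503 had such a p. Leaving out EZA replicate 3 gave 1 higher and 3 lower. The gene called with all libraries was CDC14A, a phosphatase with an iron-responsive element in a transcript form, which fell from 10.7 ± 1.17 to 6.28 ± 0.448 CPM (SD, n = 3 each; edgeR adjusted p = 0.0195). Its call was lost after removal of the GC and length trend (log2 fold change -0.54, adjusted p = 0.0826), without EZA replicate 1 (adjusted p = 0.0544) and without any 1 of the DMSO libraries (adjusted p = 0.0688 to 0.106). With the trend removed and EZA replicate 3 left out, CDC14A was called, at -0.58 (edgeR adjusted p = 0.00752). FTMT, mitochondrial ferritin, had 0 counts. PCBP1 and PCBP2, RNA-binding proteins that also hand iron to ferritin, had log2 fold changes of -0.49 ± 0.25 and -0.52 ± 0.48 (SE; edgeR adjusted p = 0.194 and 0.475). PCBP2 was at 142, 142 and 30.8 CPM in EZA replicates 1 to 3, and without EZA replicate 3 its log2 fold change was -0.08. That of PCBP1 was then -0.23. PCBP1 and PCBP2 were named after their values were seen.

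Only 4 of 11 genes of iron export and the hepcidin axis had enough counts, and 2 of them rose. These were ID1 and SMAD7, targets of BMP signalling that serve as readouts of the hepcidin pathway in liver. ID1 was at 6.38, 4.72 and 4.54 CPM in DMSO and 12.7, 13.0 and 14.2 CPM in EZA, with a log2 fold change of 1.35 ± 0.19 in edgeR (SE; adjusted p = 0.00443). SMAD7 went from 1.65 ± 0.296 to 3.81 ± 0.373 CPM (SD, n = 3 each). Its call was lost without DMSO replicate 1 or 3 (edgeR adjusted p = 0.0855 and 0.0852). The iron-linked ligand BMP6 had 2 counts in all.

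Of 18 tested genes of mitochondrial iron and iron-sulfur cluster assembly 1 rose and 0 fell, with a median log2 fold change of -0.04. An unadjusted p below 0.05 was found for 6 of them and for 4676 of all 13503 genes tested. The counts were 2 higher and 2 lower without EZA replicate 3, and 0 were called without any 1 of the DMSO libraries. FDXR, the reductase that passes electrons to ferredoxin, was at 53.1, 70.0 and 60.1 CPM in DMSO and 92.5, 94.8 and 190 CPM in EZA. Its log2 fold change was 1.04 with all libraries (edgeR adjusted p = 0.0343), 0.62 without EZA replicate 3 (adjusted p = 4.45e-05) and 0.62 after removal of the GC and length trend, where the call was lost (adjusted p = 0.138). With the trend removed and EZA replicate 3 left out, FDXR was called, at 0.25 (edgeR adjusted p = 0.00751). In the cytosolic assembly machinery 2 of 9 genes rose, CIAO3 and NUBP2, which build and hand on cytosolic iron-sulfur clusters. CIAO3 rose from 17.8 ± 2.61 to 35.0 ± 4.61 CPM and NUBP2 from 82.1 ± 11.6 to 137 ± 30.2 CPM (SD, n = 3 each). After removal of the GC and length trend 0 of the 9 were called, with CIAO3 at 0.51 (edgeR adjusted p = 0.0506) and NUBP2 at 0.37 (adjusted p = 0.137) on the log2 scale. The count was 3 without EZA replicate 3, 1 without DMSO replicate 2 and 0 without DMSO replicate 1 or 3. CIAO3 overlaps HAGHL on the other strand.

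**Figure D5:**
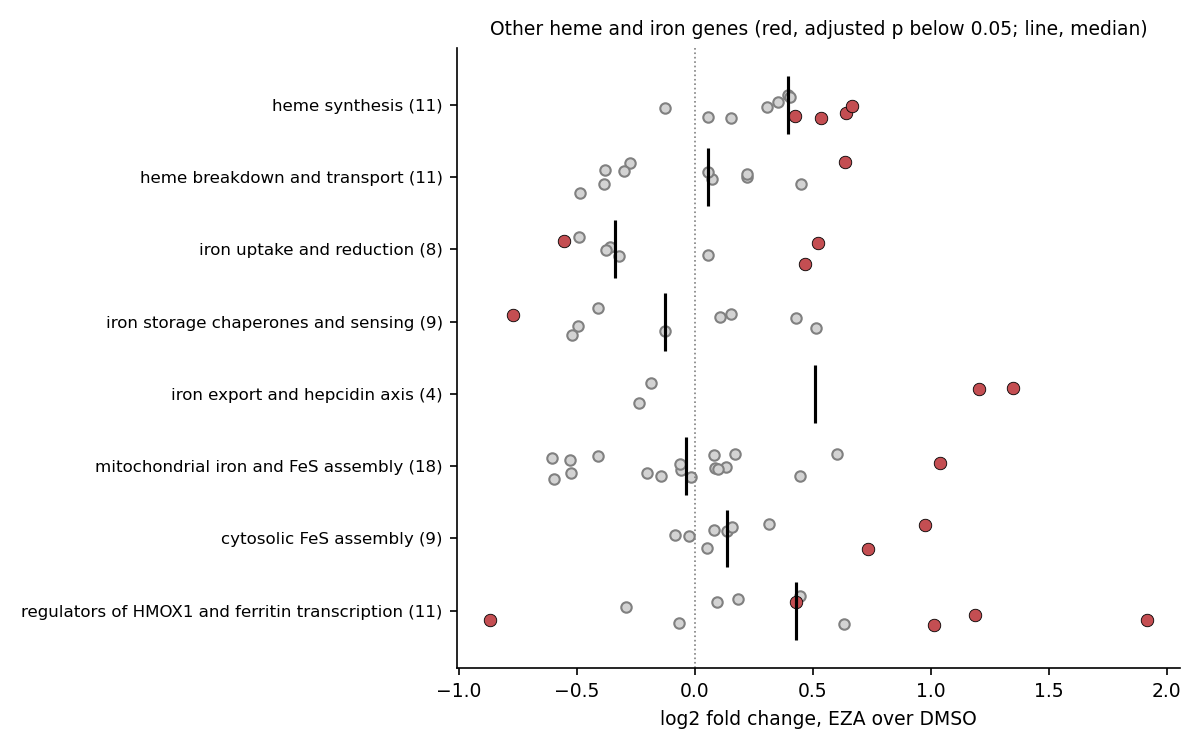
Log2 fold change of each tested gene in 8 lists of other heme and iron genes, with the number tested in parentheses, genes with an edgeR adjusted p below 0.05 in red and the median as a line; vertical scatter within a list has no meaning. Of the 81 genes 16 are called higher and 3 lower, and ATF4, among the regulators, has the highest value, 1.92.

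Among 11 tested regulators of HMOX1 and ferritin transcription 4 rose and 1 fell, with a median log2 fold change of 0.43. Of all genes tested 9.89% rose and 7.82% fell. With EZA replicate 3 left out there were 6 higher and 1 lower. Without DMSO replicate 1 there were 2 higher and 0 lower, where the whole table had 158 higher and 62 lower. Without DMSO replicate 3 there were 3 higher and 0 lower, where the whole table had 181 higher and 73 lower. NFE2L2, which encodes NRF2, was at 52.1, 41.0 and 51.5 CPM in DMSO and 47.2, 44.01 and 26.8 CPM in EZA, with a log2 fold change of -0.29 ± 0.22 in edgeR (SE; adjusted p = 0.369). Its lowest library was EZA replicate 3, without which the log2 fold change was -0.08 (adjusted p = 0.652). It overlaps HNRNPA3 and AGPS on the other strand. KEAP1, the adaptor through which NRF2 is degraded, rose from 139 ± 9.91 to 187 ± 2.90 CPM (SD, n = 3 each; adjusted p = 0.0354), and its log2 fold change went from 0.43 to 0.06 after removal of the GC and length trend. BACH1, the heme-sensing repressor of HMOX1, was at 51.4 ± 4.33 and 54.8 ± 5.10 CPM (adjusted p = 0.650). Its log2 fold change was -0.045 to 0.40 over 19 alternatives. It passed under 2 of them, but under none that only left out 1 library.

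The small MAF proteins pair with NRF2 or BACH1 on DNA. MAFF was at 34.9, 39.7 and 37.1 CPM in DMSO and 67.8, 76.9 and 80.9 CPM in EZA, with a log2 fold change of 1.01 ± 0.13 in edgeR (SE; adjusted p = 0.00345). MAFG rose from 93.2 ± 5.26 to 213 ± 58.9 CPM (SD, n = 3 each). ATF4, the transcription factor of the amino acid response, rose from 265 ± 9.53 to 1002 ± 140 CPM, and HIF1A, the oxygen-regulated factor, fell from 96.6 ± 13.8 to 52.9 ± 7.29 CPM. Of 19 alternatives, MAFG lost its call under 1 (edgeR adjusted p = 0.0610) and HIF1A under 3 (adjusted p up to 0.0758). The log2 fold change of HIF1A was -0.87 with all libraries and -0.95 to -0.41 over the alternatives. MAFG overlaps SIRT7 in the annotation.

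RefSeq promoters on GRCh38.p14 were at hand for 8 of the 10 genes, all but FTH1 and HMOX1, as 13 start sites. In the 250 bases before each start the core of the antioxidant response element, TGACNNNGC on either strand, was found in 1 of the 13, that of FECH. The match there, GCGAGGTCA, which is the core read on the other strand, begins 38 bases before the start. The same core was found in 10.9% of all 35116 promoter windows. A match in letters is not a binding site, and the distal enhancers at which NRF2 and BACH1 are known to act lie outside these windows.

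Genes with patterns most like 3 of the 10 were found by the distance between log2 differences from the DMSO mean over the 6 libraries, among 9213 other genes with a mean of at least 10 CPM. Nearest to HMOX1 were CTH, at a distance of 0.29, ATF3, TRIM16L, JDP2 and SESN2. CTH went from 6.96 to 45.4 CPM and SESN2 from 49.2 to 423 CPM. Among the nearest to FTH1 were LMO4, at 0.36, EIF4EBP1, HERPUD1 and BCAN-AS2, and LMO4 had log2 differences of 1.43, 1.45 and 0.53 in EZA replicates 1 to 3. Nearest to TFRC were MKLN1, at 0.05, ZDHHC17, IREB2, HNRNPA3 and UBR3. IREB2, at a distance of 0.09, ranked 3 among 9213 genes. These are descriptions of 6 libraries, in which genes share the scaling, the GC trend and EZA replicate 3.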

How the data were processed

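RNA sequencing libraries of 3 EZA-treated and 3 DMSO-treated RKO samples were compared. The series' design text calls the replicates biological, with all libraries in a common sequencing run, and does not mention separate cultures. The p-values thus measure only how these samples vary, which may be technical. Gene counts and FPKM values were deposited by the authors in a table of 58735 Ensembl genes. Per the submitters' processing notes, FastQC, HISAT2, featureCounts, DESeq2 and GRCh38 (hg38) were used. Versions, options and annotation were not given in the sources used here. All value columns were assigned to samples, and 0 were left unused.

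The whole count table was filtered on low counts (filterByExpr), scaled by TMM and tested with edgeR 4.0.16 (robust quasi-likelihood test, limma 3.58.1, R 4.3.3) on 13503 genes, with Benjamini-Hochberg adjustment over all of them. CPM are scaled by TMM. The common biological coefficient of variation was 18.4%. The test was checked on simulated data. GC content and length came from GENCODE 44 transcripts, and their trend was removed by lowess (span 0.3) in an alternative. Rows that repeat a symbol were left out of the symbol-based lists. Alternatives also covered scaling, low-count filters, limma-voom, DESeq2 1.42.0, a block for replicate number, summed ferritin pseudogenes, and each library left out. Limma-voom with sample weights was added after seeing the data. Ratios were tested with scipy 1.17.1.

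The 10 genes and all lists were chosen with earlier results of these data known. Named beside them were, from each list, up to 4 called genes with the smallest adjusted p and 1 called in the other direction, then NFE2L2, KEAP1, BACH1, ACO1, FBXL5, HMOX2 and BLVRA whatever their result, the ferritin pseudogene with the most counts, and the 5 genes with a mean of at least 10 CPM most like HMOX1, FTH1 or TFRC (pseudocount 0.5 CPM). Genes at few or no counts and ALAS1 were named after their values were seen. Some items that these rules would name are not reported here.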

Additional observations from a re-analysis of the deposited data

How the results depend on the processing

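HMOX1 was called under all 20 alternatives, with log2 fold changes of 2.43 to 2.96. The other 4 called genes of the 10 each lost their call under at least 1 alternative. The count of genes called over the whole table was 2392. It was 1594 with the GC and length trend removed, 5761 with limma-voom and sample weights, 5340 without EZA replicate 3 and with the trend removed, and 220 to 5289 with 1 library left out. With scaling by library size alone 1059 were higher and 1270 lower, against 1336 and 1056. Of the 10 genes, 5 were called, 9 without EZA replicate 3 and with the trend removed, and 1 to 7 with 1 library left out, the lowest without DMSO replicate 1 or 3. Of the listed other genes 19 were called, 10 with the trend removed, 40 with sample weights, 40 without EZA replicate 3 and with the trend removed, and 3 to 35 with 1 library left out. The cause of these differences was not tested.

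Libraries with the same replicate number did not deviate together (correlations 0.0327, -0.175 and 0.0266), and not every library correlated best with its own number, so the numbers were not taken as pairs. The replicate block gave 1970 called genes, 4 of the 10 and 17 of the listed genes. With the trend also removed the block gave 657, 3 and 5, and HMOX2 was at -0.12.

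Directions that turned were those of genes not called with all libraries, the largest value being that of NFE2L2 at -0.29. NCOA4 was at -0.011 with scaling by library size alone, and between -0.026 (without DMSO replicate 2) and 0.10 (without DMSO replicate 1) with 1 library left out, where it was also below 0 without EZA replicate 2. HMOX2 was at -0.12 with the trend removed. ACO1 was at -0.021 and BLVRA at -0.0066 without EZA replicate 3, and with 1 library left out they reached 0.18 and 0.16. With the trend removed as well, NFE2L2 was at 0.18, HMOX2 at -0.14 and BLVRA at -0.13. BACH1 was at -0.045 with sample weights. A change in SLC40A1 could not be seen at these depths.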
